A study of Mus musculus with 21 samples.

Results

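Immune checkpoint and costimulatory molecules were followed in sorted brain myeloid cells after traumatic brain injury (TBI). The members were 10 genes chosen by symbol (Vsir, Cd274, Cd80, Cd86, Cd40, Cd72, Lag3, Havcr2, Cd200r1 and Sirpa) out of 45706 gene identifiers in a table of estimated RNA-seq counts, with symbols taken from the GENCODE M21 annotation for 45143 of them. Each of the 10 symbols had 1 identifier, and all 10 were among the 23815 genes with enough counts to test. The table held 21 libraries in 7 groups of 3. The injury was a controlled cortical impact (CCI), a blow to the exposed cortex of male mice, and cells were sorted from a tissue block around the lesion. WT mice were C57BL/6. The Fgg390-396A mice, written Fgg below, have an altered fibrinogen gamma chain: myeloid cells can no longer engage fibrin through the integrin CD11b/CD18, while coagulation is intact. Microglia were sorted as live CD45lowCD11b+ cells from sham mice and, at 1 d and 7 d after CCI, from WT and Fgg mice. Infiltrating myeloid cells were sorted as live CD45hiCD11b+ cells from WT and Fgg mice at 1 d. Tissue from 2 brains was pooled for each library. The labels give the sham group as wild type, with no sham Fgg group used here, so that each comparison of injured Fgg microglia with sham differed in injury and genotype together and the 2 cannot be told apart. The Fgg change is a germline one and is not limited to one cell type.

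T cells need a signal through their antigen receptor and a costimulatory signal, and checkpoint molecules oppose that costimulation. CD80 and CD86, the B7 ligands on antigen-presenting cells, engage CD28 or the inhibitory CTLA-4, PD-L1 (Cd274) engages PD-1, and VISTA (Vsir) restrains T cells and is also made in quantity by myeloid cells. Microglia carry several inhibitory receptors of their own, among them SIRP alpha, which reads CD47 on neurons, and CD200R1, which reads neuronal CD200, and both are known for holding microglia in check in the healthy brain.

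The libraries held 18896957 to 51875767 estimated counts (median 27001646), and 43.0% to 58.5% of the counts lay on ribosomal RNA genes. That share was 43.4% to 47.8% in sham, 50.6% to 58.5% in WT 1 d, 51% to 55.7% in WT 7 d, 47.1% to 52.4% in Fgg 1 d and 48.6% to 52.7% in Fgg 7 d microglia. With these genes removed before scaling, as many members were called in every comparison as with them. The scaling rests on the other genes either way, so this removal cannot show whether the uneven share mattered for them. Levels are CPM values (counts scaled to a common library size) after TMM normalization, and since gene length was divided out upstream, CPM values may be compared between genes. An estimated count of 3, which need not be 3 reads, was taken as the floor of detection. It stood for 0.0448 to 0.158 CPM, depending on the library. The summed level of 8 microglia markers was 10000 to 11200 CPM in sham, 2740 to 4230 in WT 1 d and 4810 to 6230 in Fgg 1 d microglia, and 345 to 963 in the infiltrating cells. The 8 infiltrating monocyte markers summed to 5.79 to 65.1 CPM in the microglia libraries and to 799 to 1250 in the infiltrating cells. The 8 neutrophil markers summed to 2360 to 12700 in the infiltrating cells, where S100a8 and S100a9 gave most of the sum. Of the 8, 3 were called higher than in 1 d microglia in WT and 4 in Fgg. The 3 sham libraries were uneven, at 1.85 to 623 CPM for the neutrophil markers and 5.2 to 230 CPM for 8 border-associated macrophage markers. In bulk libraries, fewer cells of a type and less RNA per cell cannot be told apart. The p-values measure the spread between libraries of a group. The floor covers counting error only, and that roughly, since the counts are scaled.

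Promoter sequences are shown for 4 members that changed most clearly in WT microglia at 1 d, namely Cd72 and Cd274, which rose, and Vsir and Havcr2, which fell. The 250 bases before the RefSeq start site (GRCm38.p6) are printed 5′ to 3′ on the strand of the gene, with capitals marking any match to the 6 motifs searched on both strands. RefSeq windows were at hand for 5 of the 10 members, the other one being Cd80.
Cd72, chr4:43454627-43454876, minus strand: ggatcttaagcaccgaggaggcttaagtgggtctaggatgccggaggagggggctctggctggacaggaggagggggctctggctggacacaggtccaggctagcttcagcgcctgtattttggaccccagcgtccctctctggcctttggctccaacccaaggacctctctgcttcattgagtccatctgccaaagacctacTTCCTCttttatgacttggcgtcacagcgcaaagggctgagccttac
Cd274, chr19:29367188-29367437, plus strand: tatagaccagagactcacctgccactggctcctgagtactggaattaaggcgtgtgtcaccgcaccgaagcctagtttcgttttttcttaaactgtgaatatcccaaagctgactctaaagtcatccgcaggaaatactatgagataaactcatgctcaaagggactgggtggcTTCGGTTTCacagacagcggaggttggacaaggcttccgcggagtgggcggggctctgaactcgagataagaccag
Vsir, chr10:60346601-60346850, plus strand: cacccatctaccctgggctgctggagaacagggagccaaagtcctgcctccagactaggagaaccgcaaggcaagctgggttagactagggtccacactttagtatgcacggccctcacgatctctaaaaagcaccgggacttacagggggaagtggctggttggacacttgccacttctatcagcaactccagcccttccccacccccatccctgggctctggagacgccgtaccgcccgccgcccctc
Havcr2, chr11:46454681-46454930, plus strand: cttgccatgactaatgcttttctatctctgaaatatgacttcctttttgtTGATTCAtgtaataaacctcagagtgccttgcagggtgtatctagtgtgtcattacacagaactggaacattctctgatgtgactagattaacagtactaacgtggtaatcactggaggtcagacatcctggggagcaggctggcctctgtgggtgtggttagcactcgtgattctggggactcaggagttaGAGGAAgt

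The Cd72 window held the PU.1 core (GAGGAA) on its other strand, starting 47 bases before the start site. The Cd274 window held an interferon regulatory factor (IRF) motif, GAAANNGAA, on its other strand, starting 76 bases before the start site. The Havcr2 window held an AP-1 motif (TGANTCA) 200 bases before the start and a PU.1 core 8 bases before it, and the Vsir window held no match. Among 32851 promoters of the same length, 23.3% held the PU.1 core, 6.75% the AP-1 motif, 7.13% the IRF motif, 7.02% the STAT motif TTCNNNGAA, 7.25% the NF-kB consensus and 12.4% the TATA box TATAAA. A match is a description of the letters and not a site.

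To ask how the checkpoint and costimulatory genes of microglia responded to injury, each injured group was set against sham in a single edgeR fit over all 21 libraries. A gene was called where the adjusted p (edgeR quasi-likelihood test, Benjamini-Hochberg over all genes tested) was under 0.05 and the absolute log2 fold change above 1. At 1 d in WT microglia, 5 of the 10 members were called, where 12.3% of all genes tested were. Cd72 and Cd274 rose, and Vsir, Havcr2 and Lag3 fell. The members were chosen with earlier results of these data known, so such counts are descriptions and not tests of the set. The share covers every gene with at least 5 counts over the 21 libraries, many of them at lower levels than most members. In Fgg microglia at 1 d, 3 members were called (6.64% of all genes): Cd72 and Cd274 rose and Vsir fell. Of the genes called there, 1308 of 1582 were higher, and 1059 of 1477 with DESeq2 size factors, which left the direction of these 3 members as it was. At 7 d, 2 members were called in WT microglia (2.02% of all genes), both risen, Cd72 and Cd274. Only Cd72 was called in Fgg microglia at 7 d (0.663% of all genes). The median log2 fold change of the 10 members was -0.52 in WT and -0.59 in Fgg at 1 d and 0.07 in both at 7 d, with a median of 0 over all genes tested in each of these comparisons. These 4 comparisons share the 3 sham libraries. The libraries of injured and sham microglia did not overlap for 7 members in WT at 1 d (33.8% of all genes) and for all 10 in Fgg at 1 d (29% of all genes), for 6 in WT at 7 d (20.1%) and for 4 in Fgg at 7 d (15.6%).

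**Figure D1:**
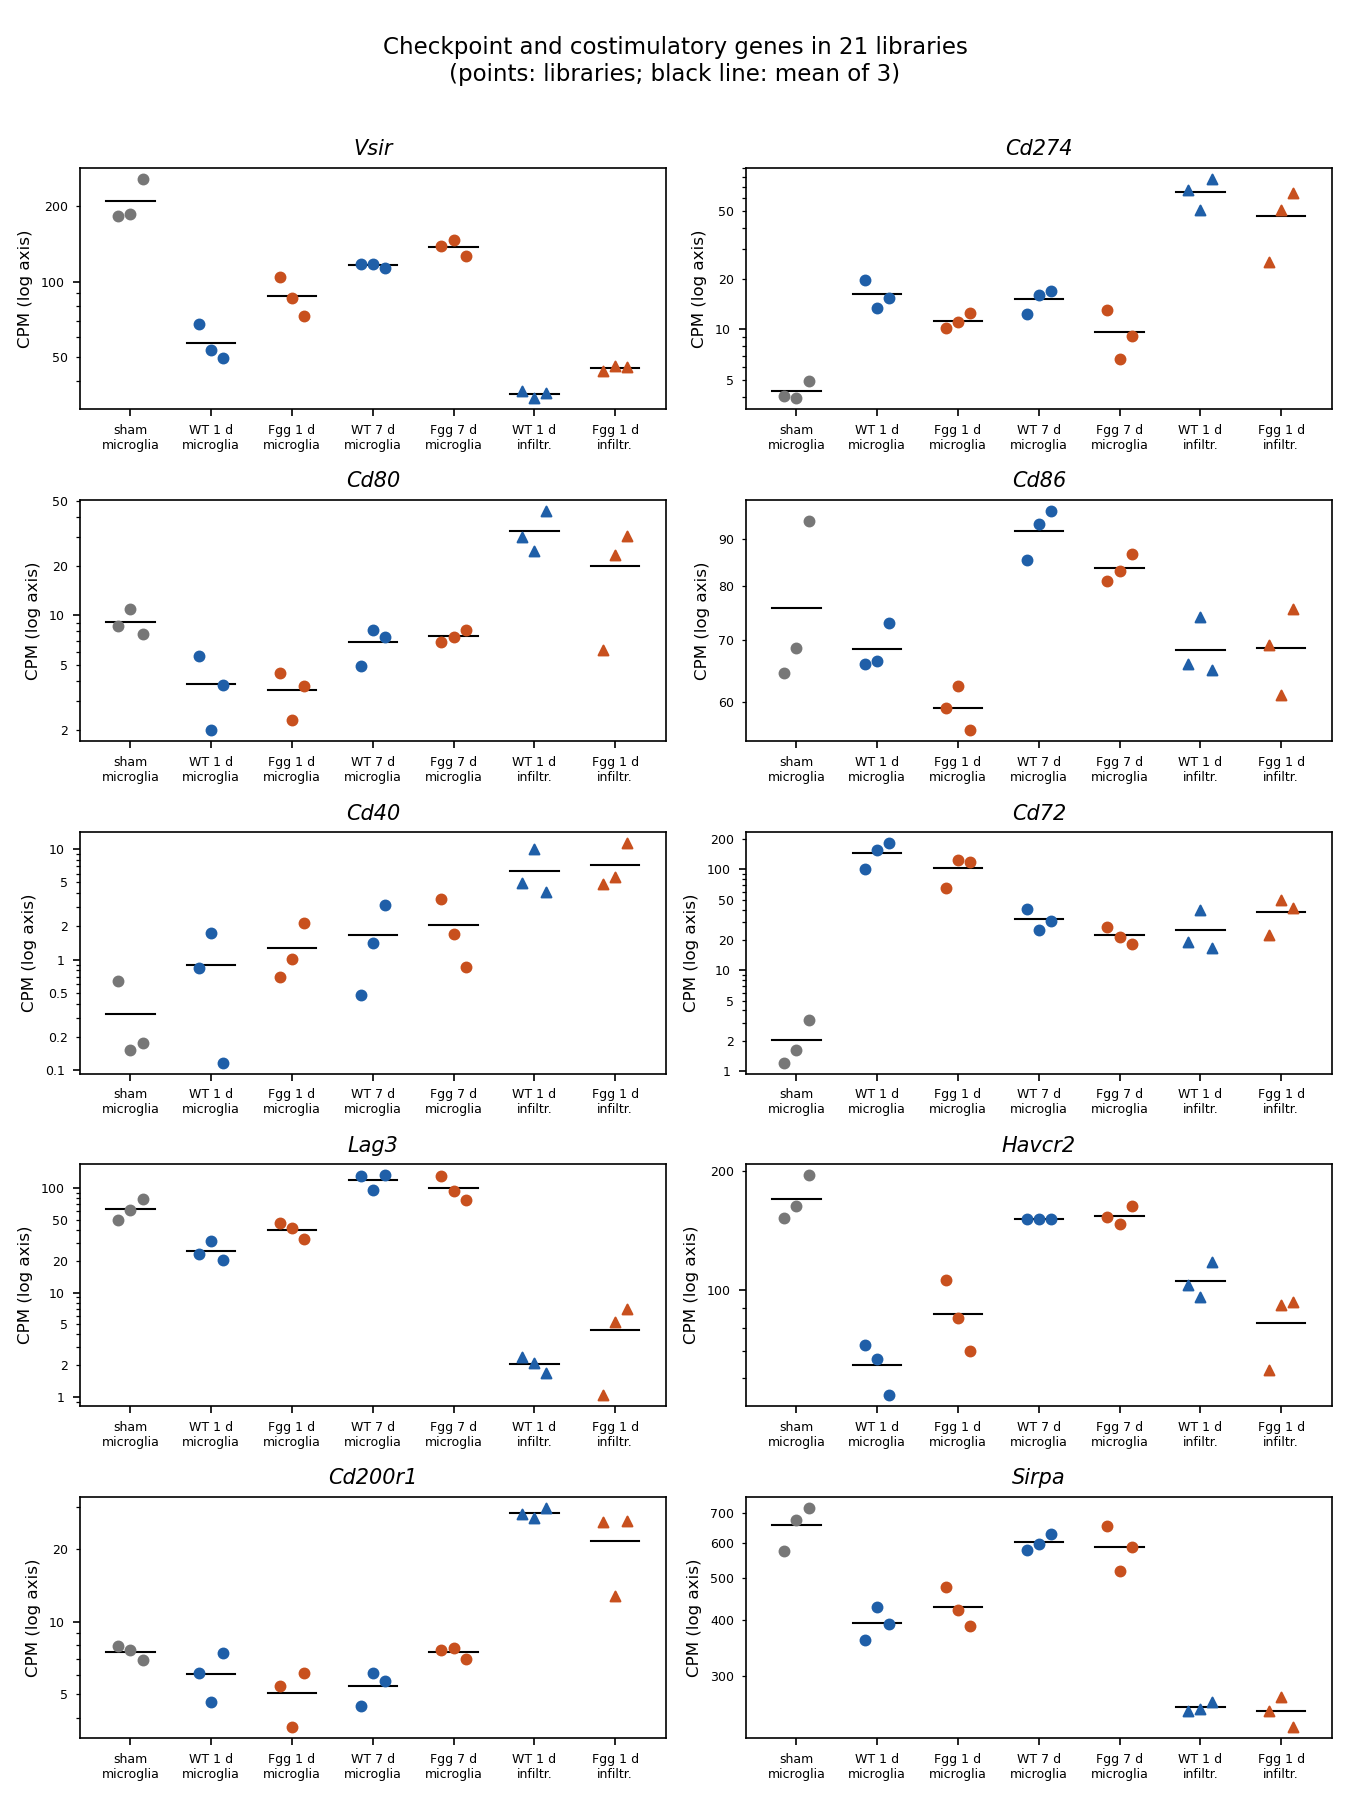
Level of each member in CPM on a log axis, with 1 panel per gene, 1 point per library (circles for microglia, triangles for infiltrating cells, gray for sham, blue for WT, orange for Fgg) and a black line at the mean of 3 libraries. Cd72 sits at 1.21 to 3.22 CPM in sham and at 18.2 CPM or above in every injured microglia library, whereas Lag3 is lowest in the infiltrating cells, at 1.04 to 7 CPM.

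Among the ligands, Cd274, which encodes PD-L1, was at 4.05, 3.91 and 4.93 CPM in sham microglia. It was at 19.7, 13.3 and 15.4 CPM in WT and at 10.2, 11 and 12.5 CPM in Fgg microglia at 1 d. At 7 d it was at 12.4, 16 and 16.8 CPM in WT and at 13, 6.68 and 9.18 CPM in Fgg microglia. All 12 injured libraries stood above the 3 sham libraries. By the edgeR test it was 3.75-fold higher in WT at 1 d (log2 fold change 1.91 ± 0.30 SE, adjusted p = 0.00013) and 3.5-fold higher in WT at 7 d (1.81 ± 0.30, adjusted p = 0.0017). In Fgg microglia it was 2.61-fold higher at 1 d (1.38 ± 0.29, edgeR adjusted p = 0.0036) and at 7 d its log2 fold change of 1.16 ± 0.29 missed the threshold (edgeR adjusted p = 0.075, 0.0097 by DESeq2). Cd274 (chromosome 19, 29367455 to 29388095, plus strand, GRCm38) overlaps a gene on the opposite strand, as Vsir does with Cdh23 and Cd72 with Tesk1. The sources used here do not say that reads were counted by strand, so reads of these pairs cannot be told apart.

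Vsir, which encodes VISTA, went the other way. It was among the higher members in sham microglia, at 183, 187 and 258 CPM, above 99.1% of all genes tested. It was at 67.8, 53.3 and 49.6 CPM in WT and at 104, 86.3 and 72.7 CPM in Fgg microglia at 1 d, and both groups lay below every sham library. After 7 d it was at 118, 118 and 113 CPM in WT and at 139, 147 and 127 CPM in Fgg microglia, again below sham. Vsir (chromosome 10, 60346851 to 60372684, plus strand, GRCm38) was 3.68-fold lower in WT at 1 d (log2 fold change -1.88 ± 0.17 SE, edgeR adjusted p = 3.7e-07) and 2.39-fold lower in Fgg at 1 d (-1.25 ± 0.17, edgeR adjusted p = 4.9e-05). At 7 d the difference from sham was -0.85 ± 0.16 in WT (edgeR adjusted p = 0.0051), under the bar on the fold, and -0.60 ± 0.16 in Fgg (edgeR adjusted p = 0.11). Of the 8 microglia markers, 5 fell in WT and 4 in Fgg microglia at 1 d, and their part in the falls of Vsir, Havcr2 and Lag3 was not tested.

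Cd80 and Cd86 encode the B7 ligands of CD28 and CTLA-4 and stood at different levels. In sham microglia Cd86 was at 64.4, 68.6 and 94.1 CPM and Cd80 at 8.61, 10.9 and 7.74 CPM. Cd86 overlapped sham in WT at 1 d (66, 66.4 and 73 CPM) and differed from it by a log2 fold change of -0.15 with a 95% interval of -0.45 to 0.16 (edgeR adjusted p = 0.56). It was at 59.1, 62.5 and 55.9 CPM in Fgg microglia at 1 d, below every sham library. At 7 d Cd86 was at 85.4, 93.2 and 96.4 CPM in WT and at 81.1, 83.1 and 86.7 CPM in Fgg microglia, overlapping sham in both. Cd86 was not called in any of the 4 comparisons with sham. At 1 d Cd80 was at 5.69, 1.99 and 3.79 CPM in WT and at 4.48, 2.32 and 3.74 CPM in Fgg microglia, below all 3 sham libraries. Its log2 fold changes of -1.25 ± 0.44 SE in WT and -1.37 ± 0.44 in Fgg did not pass (edgeR adjusted p = 0.059 and 0.055), and DESeq2 gave adjusted p = 0.016 and 0.0087. At 7 d Cd80 overlapped sham in both genotypes, at 4.92, 8.21 and 7.42 CPM in WT and 6.86, 7.39 and 8.21 CPM in Fgg microglia.

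Cd40 encodes the receptor through which helper T cells license antigen-presenting cells and was the least abundant member in microglia. It was at 0.637, 0.152 and 0.176 CPM in sham microglia, or 20, 4 and 7 counts. It was at 0.84, 1.74 and 0.117 CPM in WT and at 0.701, 1.01 and 2.13 CPM in Fgg microglia at 1 d. The 7 d values were 0.478, 1.42 and 3.09 CPM in WT and 3.56, 1.69 and 0.86 CPM in Fgg microglia. The WT libraries overlapped sham at both times. The log2 fold changes against sham ran from 1.47 (WT, 1 d) to 2.65 (Fgg, 7 d), with standard errors of 0.85 to 0.86, and none passed in edgeR (adjusted p = 0.19 to 0.27). DESeq2 called the one in Fgg at 7 d (log2 fold change 2.63, adjusted p = 0.045). These values turned on single libraries: the one for WT at 1 d was 0.61 without WT replicate 2 and 2.42 without sham replicate 1, the one for WT at 7 d was 1.56 without WT replicate 3 and 3.31 without sham replicate 1, and the one for Fgg at 7 d was 1.97 without Fgg replicate 1 and 3.60 without sham replicate 1. In Fgg at 1 d it was 1.39 without Fgg replicate 3 and 2.91 without sham replicate 1.

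Among the receptors, Cd72 showed the largest change of the 10 members in each comparison with sham. It encodes a C-type lectin-like receptor with an inhibitory tail, best known from B cells, that binds CD100 (Sema4d). Cd72 was at 1.21, 1.63 and 3.22 CPM in sham microglia. It was at 101, 157 and 182 CPM in WT and at 65.7, 124 and 118 CPM in Fgg microglia at 1 d. By 7 d it was at 40.2, 25 and 31 CPM in WT and at 26.8, 21.5 and 18.2 CPM in Fgg microglia. No injured library came near the sham range, and every 7 d library lay below every 1 d library. Against sham it was 71.6-fold higher in WT at 1 d (log2 fold change 6.16 ± 0.47 SE, edgeR adjusted p = 1e-07) and 50.2-fold higher in Fgg at 1 d (5.65 ± 0.46, edgeR adjusted p = 3.7e-07). At 7 d it was still 15.7-fold higher in WT (3.97 ± 0.43, edgeR adjusted p = 2.5e-05) and 10.9-fold higher in Fgg (3.44 ± 0.42, edgeR adjusted p = 0.00049). Cd72 (chromosome 4, 43446462 to 43454628, minus strand, GRCm38) ranked 13th, 11th, 18th and 6th by p among the genes tested in these comparisons, in the order given. Without sham replicate 3, its highest sham library, the log2 fold change was 6.69, 6.17, 4.50 and 3.97 in the same order. Cd72 is also a B cell gene, and none of 8 B cell markers was called against sham in microglia. They summed to 9 to 11.6 CPM in sham and to 2.97 to 6.26 CPM in WT 1 d microglia, where Ms4a1, Ebf1 and Fcrla had no count in any library. Cd79b gave most of that sum, at 8.76 ± 1.72 CPM (SD, n = 3) in sham and 4.57 ± 1.63 in WT 1 d microglia.

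Lag3 and Havcr2 are inhibitory receptors best known from exhausted T cells, LAG-3 as a receptor for MHC class II and TIM-3 (Havcr2) as a receptor for galectin-9 and phosphatidylserine. Lag3 was at 49.9, 61.5 and 79.7 CPM in sham, 23.5, 31.4 and 20.6 CPM in WT 1 d and 46.2, 42 and 32.3 CPM in Fgg 1 d microglia. In 7 d microglia it was at 130, 95.4 and 133 CPM in WT and at 131, 93.7 and 78 CPM in Fgg microglia. Lag3 thus lay below sham in both genotypes at 1 d, and above it in WT at 7 d, while 1 Fgg library at 7 d overlapped sham. It was 2.53-fold lower in WT at 1 d (log2 fold change -1.34 ± 0.39 SE, edgeR adjusted p = 0.021). The fall was not called without sham replicate 3 (-1.15, adjusted p = 0.081), WT replicate 1 (-1.29, adjusted p = 0.059) or WT replicate 3 (-1.19, adjusted p = 0.11). Its log2 fold changes in Fgg at 1 d (-0.67 ± 0.38, edgeR adjusted p = 0.35), in WT at 7 d (0.91 ± 0.38, adjusted p = 0.34) and in Fgg at 7 d (0.66 ± 0.38, adjusted p = 0.71) did not pass. The 8 T and NK cell markers together summed to at most 3.27 CPM in any microglia library, and Nkg7 had no count in any of them.

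Havcr2 was at 152, 163 and 195 CPM in sham microglia, 72.8, 66.8 and 54.3 CPM in WT and 106, 85.1 and 70 CPM in Fgg microglia at 1 d. At 7 d it was at 151 CPM in each of the 3 WT libraries and at 153, 147 and 163 CPM in Fgg microglia. It fell in both genotypes at 1 d without overlapping sham, and at 7 d lay just below sham in WT and overlapped it in Fgg. At 1 d it was 2.63-fold lower in WT (log2 fold change -1.40 ± 0.18 SE, edgeR adjusted p = 1.9e-05). In Fgg it was 1.95-fold lower (-0.97 ± 0.18, edgeR adjusted p = 0.0011), just under the bar on the fold, which it passed without Fgg replicate 1 (-1.13) or sham replicate 1 (-1.04).

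Sirpa and Cd200r1 encode the receptors of the neuronal signals CD47 and CD200. Sirpa was the most abundant member in every group, at 575, 677 and 720 CPM in sham, 361, 428 and 392 CPM in WT 1 d and 477, 423 and 388 CPM in Fgg 1 d microglia. At 7 d it was at 577, 597 and 628 CPM in WT and 653, 518 and 587 CPM in Fgg microglia. All 6 libraries at 1 d lay below sham, by a log2 fold change of -0.74 ± 0.14 SE in WT (edgeR adjusted p = 0.00091) and -0.62 ± 0.14 in Fgg (edgeR adjusted p = 0.007), under the bar on the fold, and at 7 d both genotypes overlapped sham. Cd200r1 was at 7.9, 7.63 and 6.91 CPM in sham, 6.11, 4.63 and 7.42 CPM in WT 1 d and 5.44, 3.65 and 6.11 CPM in Fgg 1 d microglia. It was not called against sham in either genotype at either time (edgeR adjusted p = 0.21 to 1). At 7 d it was at 4.49, 6.14 and 5.68 CPM in WT and at 7.61, 7.79 and 6.99 CPM in Fgg microglia.

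**Figure D2:**
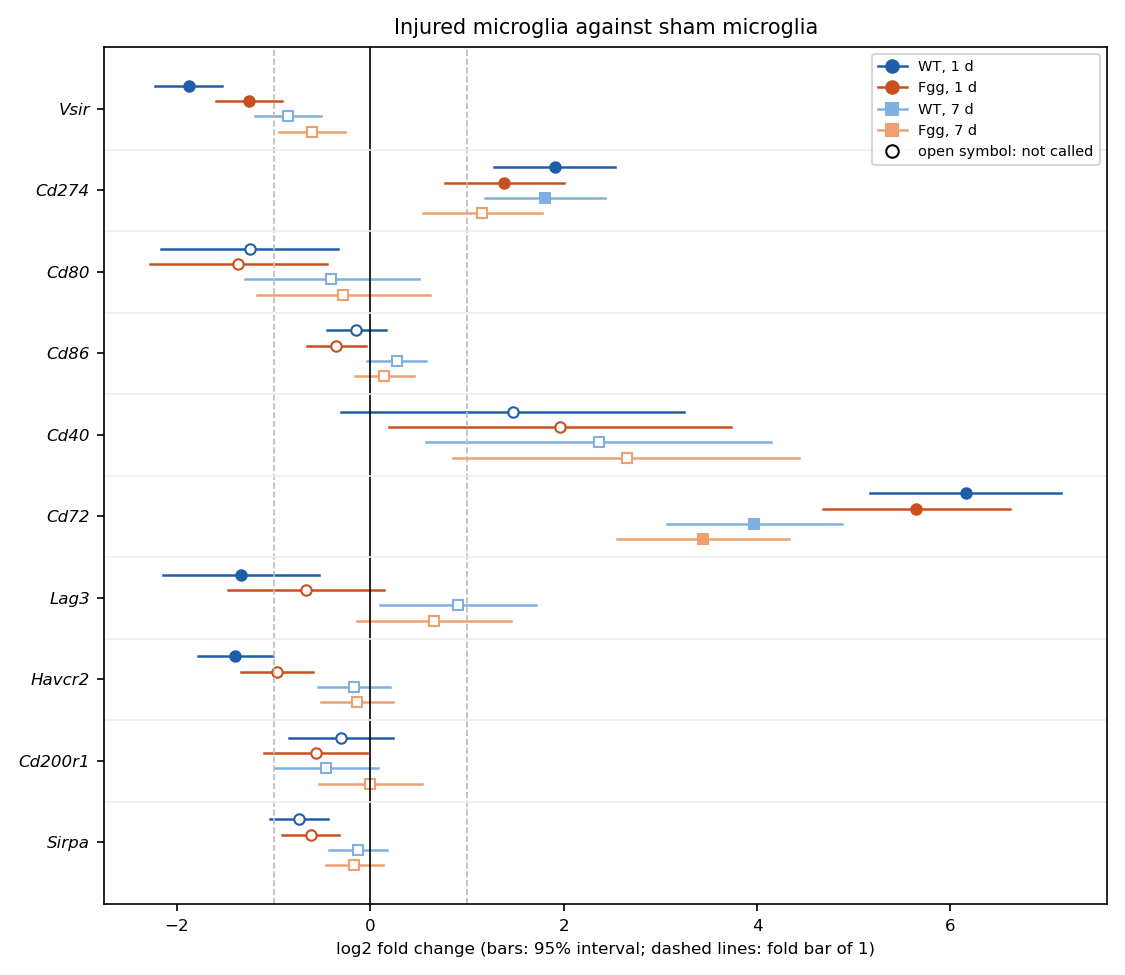
Log2 fold change of each member against sham microglia (points) with its 95% interval (bars), for WT and Fgg at 1 d (circles) and 7 d (squares), where filled symbols passed both thresholds, open symbols did not and dashed lines mark the bar of 1. Cd72 stands alone on the right at 3.44 to 6.16, Cd274 lies between 1.16 and 1.91, and Vsir lies between -1.88 and -0.60.

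To ask what was regained between 1 d and 7 d, the times were compared within each genotype. In WT microglia 4 members were called (7.06% of all genes): Vsir, Lag3 and Havcr2 rose and Cd72 fell. In Fgg microglia 2 members were called (3.54% of all genes): Lag3 rose and Cd72 fell. Lag3 was 4.75-fold higher at 7 d than at 1 d in WT (log2 fold change 2.25 ± 0.40 SE, edgeR adjusted p = 0.00086). In Fgg it was 2.51-fold higher (1.33 ± 0.39, edgeR adjusted p = 0.05), a call that was lost when any 1 of the 6 libraries was left out (adjusted p = 0.066 to 0.21). Havcr2 was 2.34-fold higher in WT (1.23 ± 0.18, edgeR adjusted p = 0.00017) and 1.77-fold higher in Fgg (0.82 ± 0.18, edgeR adjusted p = 0.008), the latter under the bar on the fold. Vsir was 2.04-fold higher in WT (1.03 ± 0.17, edgeR adjusted p = 0.00034), and fell under the bar without WT 1 d replicate 2 (0.93) or 3 (0.89) or WT 7 d replicate 1 (0.96). Cd72 was 4.57-fold lower at 7 d in WT (-2.19 ± 0.39, edgeR adjusted p = 0.00088) and 4.62-fold lower in Fgg (-2.21 ± 0.39, edgeR adjusted p = 0.0016). Cd274 differed between the times by -0.10 (95% interval -0.70 to 0.50) in WT and -0.22 (-0.82 to 0.38) in Fgg and was called in neither. Of the 8 microglia markers, 4 were also higher at 7 d than at 1 d in WT (median log2 fold change 0.89) and 0 in Fgg (median 0.43) by edgeR, and their part in the rises of Vsir, Lag3 and Havcr2 was not tested. The libraries of the 2 times did not overlap for 6 members in WT (29.4% of all genes) and 8 in Fgg (27.3%).

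To ask whether loss of the CD11b/CD18-binding motif of fibrin altered these genes after injury, Fgg libraries were compared with WT libraries of the same cells and time, with calls at an adjusted p under 0.1 and the same bar on the fold. No member was called in any of the 3 comparisons, by edgeR. Few genes were called at all: 0.0546% of those tested in microglia at 1 d, 0.0378% in microglia at 7 d and 0.453% in infiltrating cells, or 13, 9 and 108 genes by edgeR and 104, 80 and 841 by DESeq2. At an unadjusted p under 0.05 edgeR gave 2 members in microglia at 1 d (Vsir and Havcr2), 1 in microglia at 7 d (Cd274) and 2 in infiltrating cells (Vsir and Lag3), beside 5.08%, 3.34% and 11.5% of all genes. DESeq2 called 0, 0 and 1 member, the last being Lag3 in infiltrating cells (log2 fold change 1.12, adjusted p = 0.098).

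In microglia at 1 d, Vsir was higher in all 3 Fgg libraries (72.7 to 104 CPM) than in any WT library (49.6 to 67.8 CPM), by a log2 fold change of 0.63 (95% interval 0.28 to 0.97, edgeR adjusted p = 0.62, 0.041 by DESeq2), under the bar on the fold in both tools. Lag3 was likewise higher in all 3 Fgg libraries, by 0.68 (-0.13 to 1.48, edgeR adjusted p = 0.89). Cd274 was lower in all 3 Fgg libraries than in any WT library, by -0.52 (-1.12 to 0.07, edgeR adjusted p = 0.89), and so was Cd86, by -0.21 (-0.52 to 0.10, edgeR adjusted p = 0.89). These 4 of the 10 members did not overlap between genotypes, beside 8.72% of all genes. The summed microglia markers did not overlap between genotypes at 1 d either, at 2740 to 4230 CPM in WT and 4810 to 6230 in Fgg, and none of the 8 was called between genotypes. The summed neutrophil markers overlapped, at a median of 503 CPM in WT (120 to 768) and 51.2 CPM in Fgg (22.4 to 334). S100a8 and S100a9 gave most of these sums. Retnlg and Mmp8 also had higher means in WT, whereas Camp, Ngp, Ltf and Ly6g had higher means in Fgg. None of these 8 neutrophil markers was called between genotypes, and their median log2 fold change was 0.03. The part of either list in these differences was not tested. At 7 d Vsir and Cd200r1 did not overlap between genotypes (11.1% of all genes), both higher in Fgg, by 0.25 (-0.09 to 0.59) and 0.46 (-0.08 to 0.99). Cd274 was 1.57-fold lower in Fgg at 7 d (-0.65, 95% interval -1.25 to -0.05, edgeR adjusted p = 1), with 1 Fgg library at 13 CPM inside the WT range.

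In infiltrating cells, Vsir was at 36.8, 34.3 and 36 CPM in WT and at 44.1, 46.2 and 45.7 CPM in Fgg, a difference of 0.34 on the log2 scale (95% interval 0 to 0.69, edgeR adjusted p = 0.43). It was 1 of 3 members whose libraries did not overlap between genotypes there (8.02% of all genes), the others being Havcr2 and Cd200r1, both lower in Fgg. Fgg replicate 1 stood apart from the other Fgg infiltrating libraries in several members, with Cd80 at 6.19 CPM against 23.3 and 30.3, Cd274 at 24.9 against 50.8 and 64.3, Lag3 at 1.04 against 5.18 and 7, and Havcr2 at 63 against 91.6 and 93.3. With it, Cd80 differed between genotypes by -0.71 (-1.60 to 0.17) and Cd274 by -0.48 (-1.08 to 0.11), and without it by -0.23 and -0.13. Lag3 was 2.14-fold higher in Fgg (1.10 ± 0.42 SE, edgeR adjusted p = 0.33), and without that library the difference was 1.60 and passed (edgeR adjusted p = 0.0096).

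**Figure D3:**
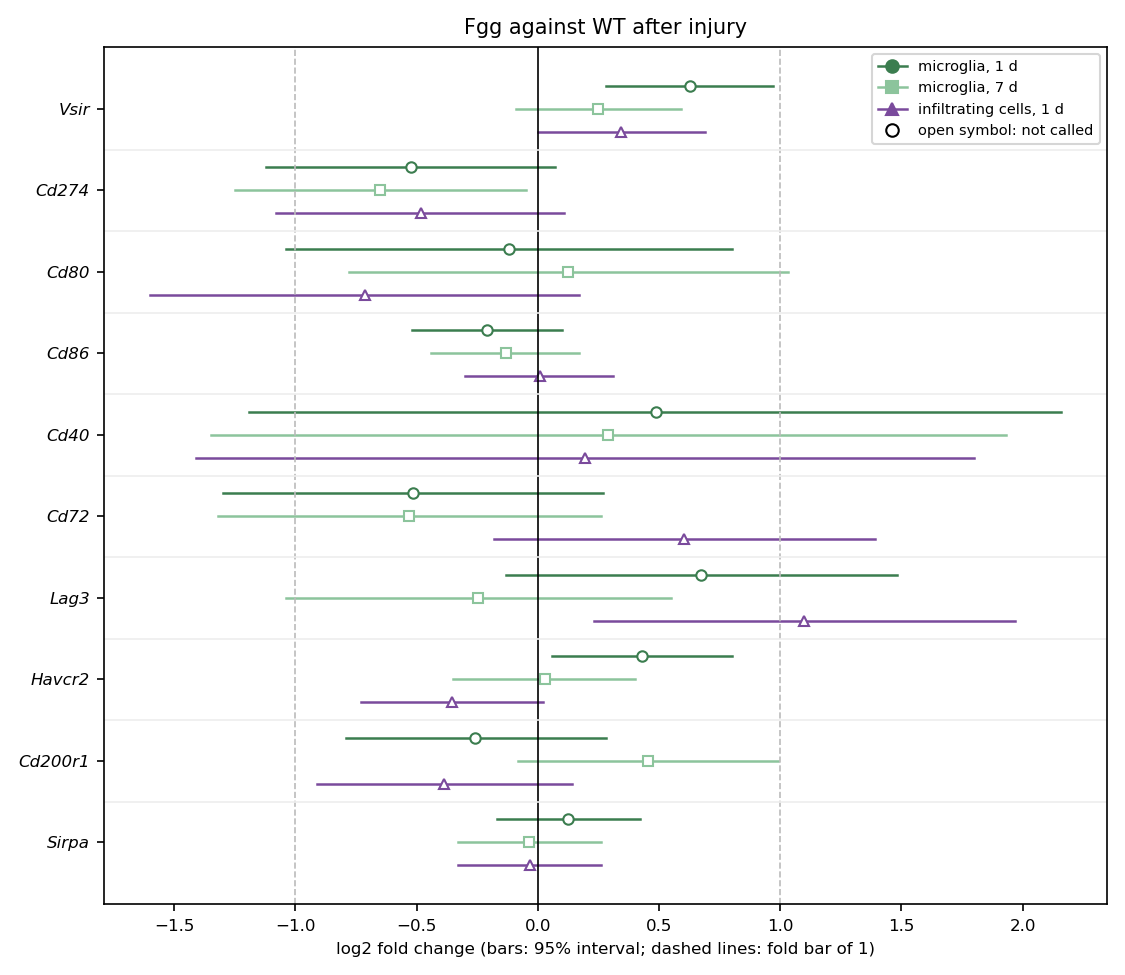
Log2 fold change of Fgg over WT for each member (points) with its 95% interval (bars), in microglia at 1 d (circles), microglia at 7 d (squares) and infiltrating cells at 1 d (triangles), all drawn open because none was called. Vsir lies to the right of 0 at 0.63, 0.25 and 0.34 and Cd274 to the left at -0.52, -0.65 and -0.48, whereas Cd40 has the widest intervals.

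The ratio of Vsir to Cd274 within a library does not depend on library scaling, and it was taken after the values of both genes had been seen, so that it is a description with no test. In sham microglia Vsir was 45.2 to 52.3 times the level of Cd274. At 1 d the ratio was 3.22 to 4.01 in WT and 5.82 to 10.3 in Fgg microglia, and at 7 d it was 6.71 to 9.5 in WT and 10.7 to 22 in Fgg microglia. In infiltrating cells it was 0.46 to 0.674 in WT and 0.71 to 1.77 in Fgg. In each of the 3 settings every Fgg library lay above every WT library, and every injured library lay below sham. The share of other gene pairs that separate the genotypes in this way was not determined. Neither Vsir nor Cd274 was called between genotypes in any of the 3 settings by edgeR.

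**Figure D4:**
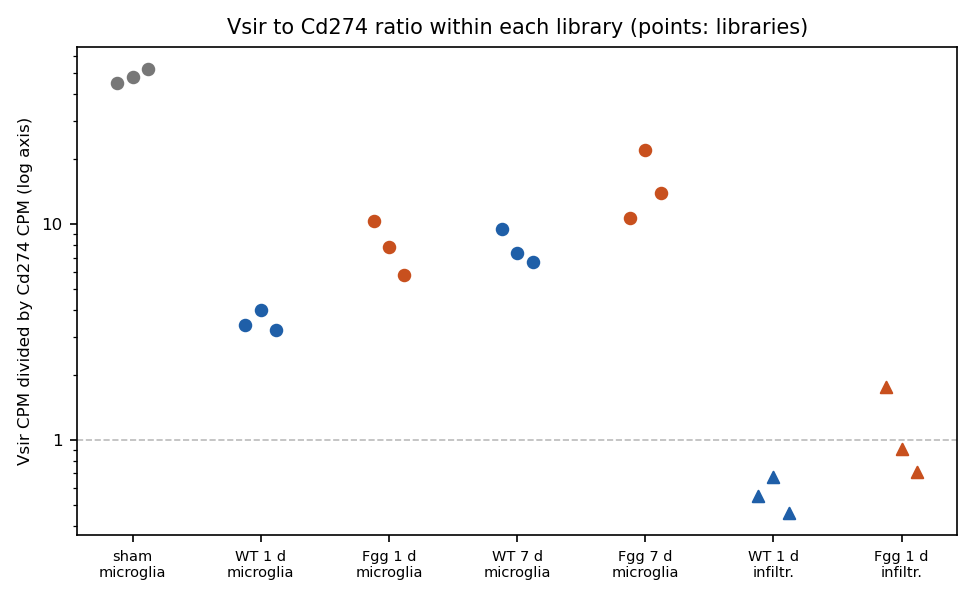
Vsir CPM divided by Cd274 CPM within each library on a log axis, with 1 point per library, gray for sham, blue for WT, orange for Fgg, circles for microglia, triangles for infiltrating cells and a dashed line at equal levels. The ratio runs from 52.3 in a sham library down to 0.46 in a WT infiltrating library. Fgg points lie above WT points in each setting, for a pair of genes picked after their values were seen, neither of them called between genotypes.

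The genotype effect was also compared between settings through interaction terms, where a call needed only an adjusted p under 0.1 and no minimum fold. For the effect at 7 d minus that at 1 d in microglia, edgeR called no member and 0% of all genes, and no member had an unadjusted p under 0.05. For the effect in infiltrating cells minus that in microglia at 1 d, edgeR again called no member, with 0.0462% of all genes called, and 2 members had an unadjusted p under 0.05, beside 8.37% of all genes. These were Havcr2, with a difference of -0.79 ± 0.25 SE on the log2 scale (edgeR adjusted p = 0.49), and Cd72, with 1.12 ± 0.53 (edgeR adjusted p = 0.59). Havcr2 was higher in Fgg than in WT by 0.43 (95% interval 0.06 to 0.80) in microglia and lower by -0.36 (-0.73 to 0.02) in infiltrating cells. DESeq2 called no member in either term, and for the effect in infiltrating cells minus microglia it called 259 genes where edgeR called 11.

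To ask how the 2 sorted populations differed at 1 d, infiltrating cells were compared with microglia of the same genotype. In WT 6 members were called (11.9% of all genes) and in Fgg 6 members (16.7% of all genes). In both, Cd274, Cd80, Cd40 and Cd200r1 were higher and Cd72 and Lag3 lower in infiltrating cells. The libraries did not overlap for 9 members in WT (29.2% of all genes) and 8 in Fgg (32.1%). The median over all genes was -0.13 in the Fgg comparison, and scaling by DESeq2 size factors moved it by 0.12.

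Cd80 was at 30, 24.8 and 43.4 CPM in WT and at 6.19, 23.3 and 30.3 CPM in Fgg infiltrating cells. It was 8.57-fold higher than in microglia in WT (log2 fold change 3.10 ± 0.46 SE, edgeR adjusted p = 8.9e-05) and 5.67-fold higher in Fgg (2.50 ± 0.45, adjusted p = 0.00047), the latter 3.03 without Fgg infiltrating replicate 1. Cd86, by contrast, was at 65.9, 74.1 and 64.9 CPM in WT and at 69.1, 61 and 75.6 CPM in Fgg infiltrating cells, and were close to the microglia libraries (log2 fold changes of 0.00, 95% interval -0.31 to 0.30, in WT and 0.21, -0.09 to 0.52, in Fgg). The ratio of Cd86 to Cd80 was therefore 1.49 to 2.98 in WT infiltrating libraries and 11.6 to 33.3 in WT 1 d microglia, and in Fgg infiltrating cells it was 2.5 and 2.62 in the other libraries and 11.2 in replicate 1. Cd274 was at 66.7, 50.9 and 78.2 CPM in WT and at 24.9, 50.8 and 64.3 CPM in Fgg infiltrating cells, 4.04-fold (2.02 ± 0.29, edgeR adjusted p = 7e-05) and 4.16-fold (2.06 ± 0.29, edgeR adjusted p = 4.7e-05) above microglia.

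Cd40 was at 4.98, 9.95 and 4.06 CPM in WT and at 4.83, 5.55 and 11.3 CPM in Fgg infiltrating cells. It was 6.99-fold higher than in microglia in WT (2.81 ± 0.84 SE, edgeR adjusted p = 0.026) and 5.71-fold higher in Fgg (2.51 ± 0.82, edgeR adjusted p = 0.033). These calls were lost without WT microglia replicate 1 or 3 or WT infiltrating replicate 2 (adjusted p = 0.083, 0.079 and 0.09), and without Fgg microglia replicate 1 or 2 or Fgg infiltrating replicate 3 (adjusted p = 0.13, 0.11 and 0.11). Without WT microglia replicate 2 the log2 fold change in WT was 3.75. Cd200r1 was at 27.9, 27 and 29.7 CPM in WT and at 25.9, 12.8 and 26.1 CPM in Fgg infiltrating cells, 4.66-fold (2.22 ± 0.26, edgeR adjusted p = 7.3e-06) and 4.26-fold (2.09 ± 0.26, edgeR adjusted p = 1.1e-05) above microglia.

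Lag3 was at 2.39, 2.11 and 1.71 CPM in WT and at 1.04, 5.18 and 7 CPM in Fgg infiltrating cells, 12.1-fold (-3.59 ± 0.44 SE, edgeR adjusted p = 9.9e-06) and 8.99-fold (-3.17 ± 0.42, edgeR adjusted p = 2e-05) below microglia, the latter -2.61 without Fgg infiltrating replicate 1. The microglia markers fell alongside, with median log2 fold changes of -3.13 in WT and -3.35 in Fgg over the 8 of them, and whether the Lag3 counts of the infiltrating libraries came from microglia was not tested. Cd72 was at 19.2, 39.3 and 16.8 CPM in WT and at 22.3, 50 and 41.8 CPM in Fgg infiltrating cells, 5.85-fold below microglia in WT (-2.55 ± 0.40, edgeR adjusted p = 0.00014). In Fgg it was 2.7-fold below (-1.43 ± 0.38, edgeR adjusted p = 0.01), a call lost without Fgg infiltrating replicate 1 (-1.05, adjusted p = 0.08).

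Sirpa was at 249 to 262 CPM in WT and 229 to 268 CPM in Fgg infiltrating cells, below microglia by -0.63 ± 0.14 SE (edgeR adjusted p = 0.0041) and -0.79 ± 0.14 (edgeR adjusted p = 0.0005), under the bar on the fold. Vsir was also lower under the bar, by -0.67 ± 0.16 in WT (edgeR adjusted p = 0.0071) and -0.95 ± 0.16 in Fgg (edgeR adjusted p = 0.00031). Havcr2 was at 103, 96.1 and 118 CPM in WT infiltrating cells, above WT microglia by 0.71 ± 0.18 (edgeR adjusted p = 0.0092), and at 63, 91.6 and 93.3 CPM in Fgg infiltrating cells, where it overlapped Fgg microglia (-0.08, 95% interval -0.45 to 0.30). The infiltrating libraries also held dendritic cell markers, which summed to 67.5 to 149 CPM against 10.6 to 21 in microglia. Cd209a and Ccr7 gave most of it, at means of 30.8 and 29.8 CPM in WT and 67.2 and 28.7 in Fgg infiltrating cells. Of these 8 markers, 4 were called higher than in microglia in each genotype and 1 lower in Fgg. Batf3 had lower means than in 1 d microglia in both genotypes. The 8 border-associated macrophage markers summed to 1020 to 1940 CPM in infiltrating cells against 5.2 to 230 in microglia. Pf4 gave most of that sum, at a mean of 1400 CPM in WT and 1420 in Fgg infiltrating cells. Of the 8, only 2 were called higher than in microglia in WT and 4 in Fgg. The part of either list in the levels of Cd80, Cd274 and Cd40 was not tested.

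**Figure D5:**
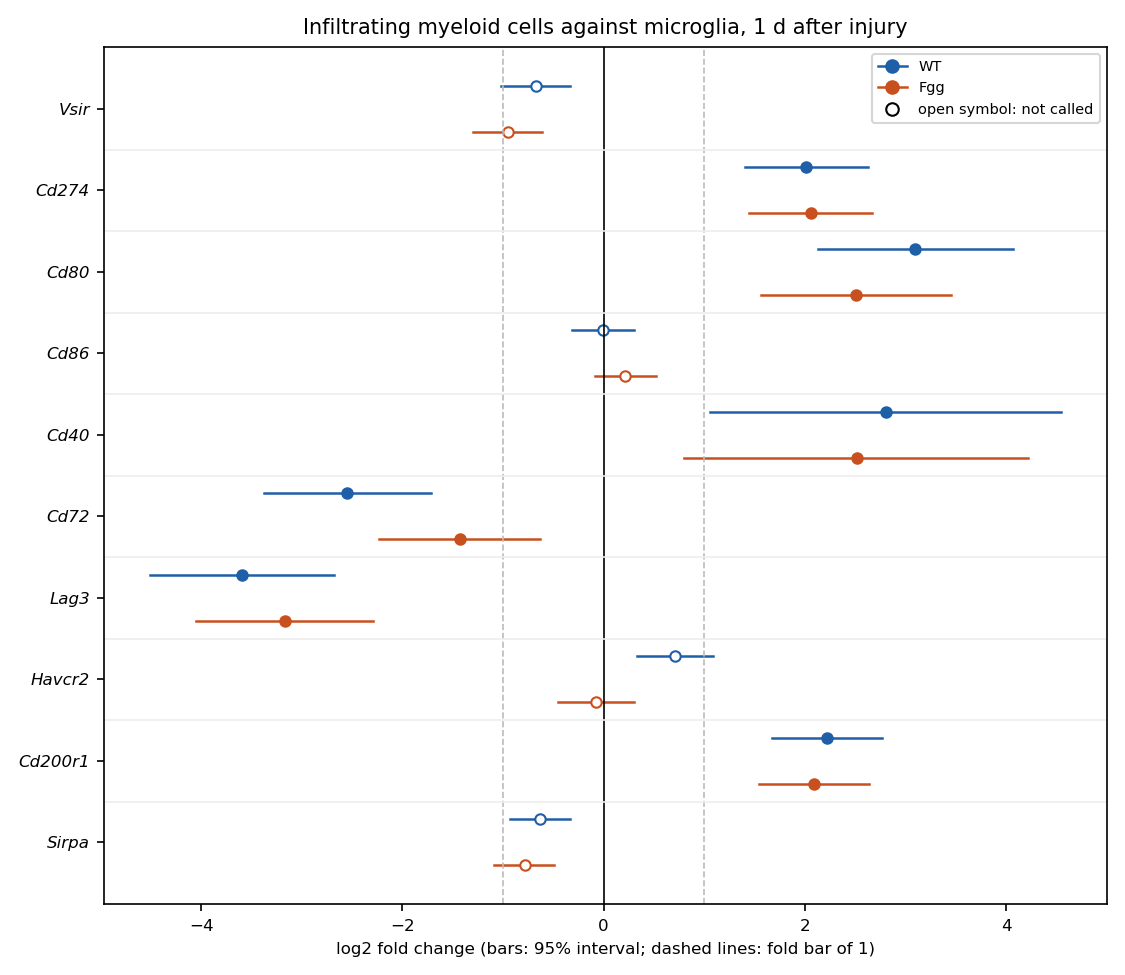
Log2 fold change of infiltrating cells over microglia at 1 d for each member (points) with its 95% interval (bars), in WT (blue) and Fgg (orange), where filled symbols passed both thresholds and dashed lines mark the bar of 1. Cd274, Cd80, Cd40 and Cd200r1 lie at 2.02 or above, Lag3 and Cd72 lie at -1.43 or below, and Cd86 lies at 0.00 and 0.21.

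The wider families gave the setting of these changes, and their counts are to be read against the 12.3% of all genes called in WT and 6.64% in Fgg microglia at 1 d. Some lists hold members, such as Vsir among the B7 ligands, Cd72 and Havcr2 among the inhibitory receptors and Lag3 among the lymphocyte receptors. Their counts thus partly repeat the results above. Of the B7 family ligands, 7 of 8 were tested, and in WT microglia at 1 d against sham 2 rose and 2 fell. The genes of this list that fell were Vsir and Icosl, the ligand of ICOS, at 38.8 ± 3.78 CPM (SD, n = 3) in sham and 18.1 ± 9.49 in WT 1 d microglia (edgeR adjusted p = 0.0056). Pdcd1lg2, which encodes PD-L2, had no count in sham and only 0.195 to 0.305 CPM in WT 1 d microglia, but 3.41 to 9.29 CPM in WT infiltrating cells. Of the TNF superfamily costimulation genes, 7 of 8 were tested and 2 rose in WT microglia at 1 d, led by Tnfsf9, the 4-1BB ligand, which went from 1.24 ± 0.186 CPM (SD, n = 3) in sham to 10.3 ± 0.768 in WT (log2 fold change 3.04 ± 0.35 SE, edgeR adjusted p = 5.7e-06) and 6.93 ± 2.22 in Fgg (2.47 ± 0.35, adjusted p = 8.5e-05) at 1 d. Its receptor, Tnfrsf9, was the lymphocyte receptor gene that rose in both genotypes at 1 d (edgeR adjusted p = 0.00055 and 0.024), from 7 counts over the sham libraries to 140 over the WT 1 d libraries (0.878 to 2.24 CPM). Tnfrsf9 was at 10.6 to 21.7 CPM in WT infiltrating cells, and the part of such cells in the microglia counts was not tested.

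Of 17 inhibitory receptors of myeloid cells tested, 10 changed in WT microglia at 1 d, 4 higher and 6 lower, and 7 changed in Fgg microglia, 4 higher and 3 lower, where 12.3% and 6.64% of all genes were called. By adjusted p the leading ones in WT were Cd72, Milr1, Havcr2 and Cd33. Milr1, which encodes the inhibitory receptor Allergin-1, rose (2.57 ± 0.23 SE, edgeR adjusted p = 3.5e-07), and Cd33, which encodes a siglec, fell (-2.50 ± 0.35, edgeR adjusted p = 4.2e-05). In Fgg they were Cd72, Milr1 (2.09 ± 0.22, edgeR adjusted p = 5.9e-06), Pilra (1.48 ± 0.23, adjusted p = 0.00019) and Cd300lf (2.29 ± 0.39, adjusted p = 0.00057), all higher. At 7 d Cd300lf was still higher than in sham, by 2.69 ± 0.40 in WT (edgeR adjusted p = 0.00062) and 2.90 ± 0.40 in Fgg (adjusted p = 0.00086). Its level was 0.832 to 3.05 CPM in WT 1 d microglia and 36.7 to 51.6 CPM in WT infiltrating cells. Among 8 signaling adaptors of such receptors, only Dok2 was called at 1 d, at 0.547 ± 0.103 CPM in sham, 9.9 ± 1.41 in WT and 5.83 ± 1.11 in Fgg microglia (SD, n = 3), a count near the share of all genes.

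Among 13 partners of the members, 1 rose and 3 fell in WT microglia at 1 d, and 1 rose and 2 fell in Fgg. Lgals3, a galectin that binds LAG-3, was at 1.12 to 6.44 CPM in sham, 65.8 to 204 CPM in WT 1 d and 29.8 to 56 CPM in Fgg 1 d microglia (edgeR adjusted p = 1.4e-06 and 5.4e-05 against sham). It was at 1000 to 1320 CPM in WT infiltrating cells, and whether such cells added to the microglia counts was not tested. Selplg, which encodes PSGL-1, a partner of VISTA, fell from 920 to 1190 CPM in sham to 108 to 287 CPM in WT and 359 to 506 CPM in Fgg 1 d microglia (edgeR adjusted p = 7.4e-06 and 0.0047). Ceacam1, a partner of TIM-3, and in WT Sema4d, the ligand of CD72, fell as well (log2 fold changes of -1.70 ± 0.26 SE and -1.07 ± 0.19 in WT, edgeR adjusted p = 9.8e-05 and 0.00046). No partner was called between genotypes in microglia or infiltrating cells by edgeR. In infiltrating cells against WT microglia, Cd47, the ligand of SIRP alpha, was 1.32 ± 0.18 higher on the log2 scale (edgeR adjusted p = 4.3e-05).

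Of 15 lymphocyte checkpoint and costimulatory receptors, 1 rose (Tnfrsf9) and 2 fell (Lag3 and Cd160) in WT microglia at 1 d and 1 rose in Fgg microglia, counts near the 12.3% and 6.64% of all genes called. Cd160 was low throughout, with 38 counts over the sham libraries (0.223 to 0.607 CPM) and 0 over the WT 1 d microglia libraries. Pdcd1, which encodes PD-1 and is named here as the receptor of PD-L1, was at 0.585 ± 0.338 CPM in sham and 2.43 ± 0.817 CPM in WT 1 d microglia (SD, n = 3), and was not called there. Of 10 genes of CD40 signaling, 1 rose (Traf1) and 1 fell (Traf5) in WT microglia at 1 d, again near the share of all genes. Traf1 was at 1.48 to 4.47 CPM there and at 19.8 to 30.2 CPM in WT infiltrating cells. None of the 10 genes was called in Fgg microglia. In WT infiltrating cells against microglia, where 11.9% of all genes were called, 5 were higher, among them Birc3 (1.70 ± 0.26 SE, edgeR adjusted p = 0.00014) and Traf6 (1.06 ± 0.19, adjusted p = 0.00051), and 1 was lower. Across the 7 lists the 3 genotype comparisons called 1 gene, Siglece, an inhibitory siglec, in infiltrating cells. The shares of all genes called were 0.0546% and 0.0378% in microglia at 1 d and 7 d and 0.453% in infiltrating cells. This count is thus not read as a result about the lists. Siglece was at 8.63 to 9.46 CPM in WT and 13.3 to 31.4 CPM in Fgg (log2 fold change 1.37 ± 0.28 SE, edgeR adjusted p = 0.054).

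The order of the members by mean CPM in sham microglia was Sirpa, Vsir, Havcr2, Cd86, Lag3, Cd80, Cd200r1, Cd274, Cd72 and Cd40. Neighbours whose libraries overlapped were Vsir and Havcr2, Cd86 and Lag3, and Cd80 and Cd200r1. In WT microglia at 1 d Cd72 stood next after Sirpa, above 98.3% of all genes tested, up from 56.5% in sham. In WT infiltrating cells Sirpa and Havcr2 were highest and Lag3 was lowest, above 59.7% of all genes tested.

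Over the 21 libraries, the genes whose log2 CPM ran most like that of a member were named from 9708 other genes with a mean log2 CPM of at least 1, as a description with no test, since the libraries share groups. They were Rcsd1 (Pearson r = 0.983), Tgfbr1 and Smad1 for Vsir, and Rhbdf2 (0.961), Pmaip1 and Bhlhe40 for Cd274. They were Fcgr4 (0.966), Cpd and Lpl for Cd72, and Slc12a2 (0.98), P3h2 and Aagab for Lag3. For Sirpa they were Scarb2 (0.972), Serinc3 and Tnfrsf21, for Cd200r1 Btg1 (0.946), Ccdc71l and Vasp, for Cd80 Gm26809 (0.942), Pnrc1 and Tnfaip3, and for Havcr2 Rnf166 (0.939), Ccng2 and Epc1. Cd86 (Mitf, 0.894, Grn and Dhrs3) and Cd40 (Hmox2, 0.871, Pcgf5 and Helz2) had less similar neighbours. Among the members themselves, Vsir ran most like Sirpa (r = 0.932) and most unlike Cd274 (r = -0.887).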

How the data were processed

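The authors deposited estimated counts per gene, made with salmon in an nf-core RNA-seq workflow on GRCm38 and scaled for transcript length and library size, with 1 column per library. The submitters' processing notes name R 4.2.0 and DESeq2 1.36.0. For 56.8% of genes the deposited counts were not whole, and they were rounded. Genes with at least 5 counts over the 21 libraries were tested in R 4.3.3 with edgeR 4.0.16 (TMM, quasi-likelihood, 7 groups, no block), adjusted by Benjamini-Hochberg over all genes, and with DESeq2 1.42.0 as an alternative. For 563 identifiers no symbol matched. The fit was tested on simulated data for WT 1 d against sham: with 23211 genes, 121 of 200 genes changed by a log2 of 2 were recovered (60.5%), with 2 false calls. All members were named, and at most 4 called genes per wider list and comparison, by adjusted p. Members and lists were chosen with earlier results of these data known. Other alternatives were the low-count filter, size factors, the samples in the fit, removal of ribosomal RNA genes, the bar on the fold, a replicate block and leaving out each library.

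Replicate numbers were checked for pairing: the correlation of same-numbered deviations ran from -0.119 to 0.449 and was over 0.1 in 10 of 33 pairs, and in every pair of 1 of 11 comparisons only, Fgg against WT microglia at 1 d. The chi-square per degree of freedom between replicates was at least 15.5. It takes the values as read counts, and since they are scaled estimates, it measures excess over sampling noise only roughly.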

Additional observations from a re-analysis of the deposited data

How the results depend on the processing

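Setting the bars on the fold aside, which change calls and not values, 29 called values of the members had 377 alternative values, of which 357 kept direction and call, 20 kept the direction but lost the call, and 0 reversed. Of 101 values not called, and again without the changes of bar, 22 changed sign in some alternative, none with a log2 fold change above 0.49 in size, and 7 were called in one. Where no cause is given below, the cause was not tested.

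For Fgg microglia at 1 d against sham, 5 members in place of 3 were called by the DESeq2 Wald test, with DESeq2 size factors in edgeR and with the edgeR filter on low counts, each adding Cd80 and Havcr2. With no bar on the fold there were also 5, adding Havcr2 and Sirpa, and with a bar of 1.5 there was 1. By DESeq2, 3 members in place of 1 were called for Fgg at 7 d against sham and 1 in place of 0 for Fgg against WT infiltrating cells. With a bar of 1.5, 3 members were called for WT at 1 d against sham, 2 for WT and 1 for Fgg microglia at 7 d against 1 d, and with no bar 4 for the last. Leaving out 1 library gave 1 to 1 members for Fgg microglia at 7 d against 1 d and 0 to 1 for Fgg against WT infiltrating cells.

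With the replicate block, 1 member was called for Fgg microglia at 7 d against 1 d, Lag3 being lost (adjusted p = 0.065), and the block moved no other count of members by over 1.5 times. For Fgg against WT microglia at 1 d, where every pair deviated together, the block left 0 members called.

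With 3 libraries per group, 3 counts stood for 0.0754 to 0.114 CPM in the sham libraries, and Cd40 in sham lay near that floor.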
